A study of Danio rerio with 16 samples.

Results

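The transcriptome of untreated zebrafish larvae was described from the vehicle libraries of a drug study, 8 of the 16 libraries in the series. Each library was made from a pool of 30 whole larvae (Danio rerio, WIK strain) at 5 days post fertilization, kept for 6 h in vehicle (0 µM triptolide, DMSO in the study's methods). The pools carried no transgene or mutation named in the labels, and the study calls them biological replicates. The deposited counts of 57264 transcripts were summed over 31812 Ensembl genes and scaled by the library total to CPM, each library brought to a total of 1000000, so that 10000 CPM is 1% of a library. Totals ran from 19679120 counts in pool 7 to 75490916 in pool 2, with a median of 31374554. Pools were whole animals, so fewer cells of a type and less RNA per cell cannot be told apart in any value below.

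At 5 days the zebrafish larva has hatched, swims and is close to the end of its yolk. Its trunk is mostly fast-twitch muscle, and its liver, pancreas, gut, eyes and pronephric kidney are already at work. Whole-larva RNA therefore mixes a few bulky tissues with many small organs. Total RNA libraries, from which most ribosomal RNA is depleted before sequencing, also keep non-polyadenylated transcripts such as mitochondrial ribosomal RNA, small nuclear RNAs and small nucleolar RNAs.

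A single transcript held 19.96% ± 1.53 (SD, n = 8) of all counts. This was AC024175.4, the longer of 2 mitochondrial ribosomal RNA entries, at position 2043 to 3725 of the mitochondrial genome (GRCz10). Its level was between 181212 CPM in pool 5 and 221549 CPM in pool 4, with a median of 200218. The shorter entry, AC024175.17, was far lower at 5788 ± 1575 CPM, and its order over the pools differed, with pool 1 highest (8142 CPM) and pool 4 lowest (3746 CPM). The 10 genes highest in mean CPM took 29.9% ± 2.89 of the counts, the 100 highest 47.2% ± 3.998 and the 1000 highest 67.9% ± 3.12. Of the 31812 genes, 29687 had a count in any pool, and 20020 were at 1 CPM or more in every pool.

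**Figure D1:**
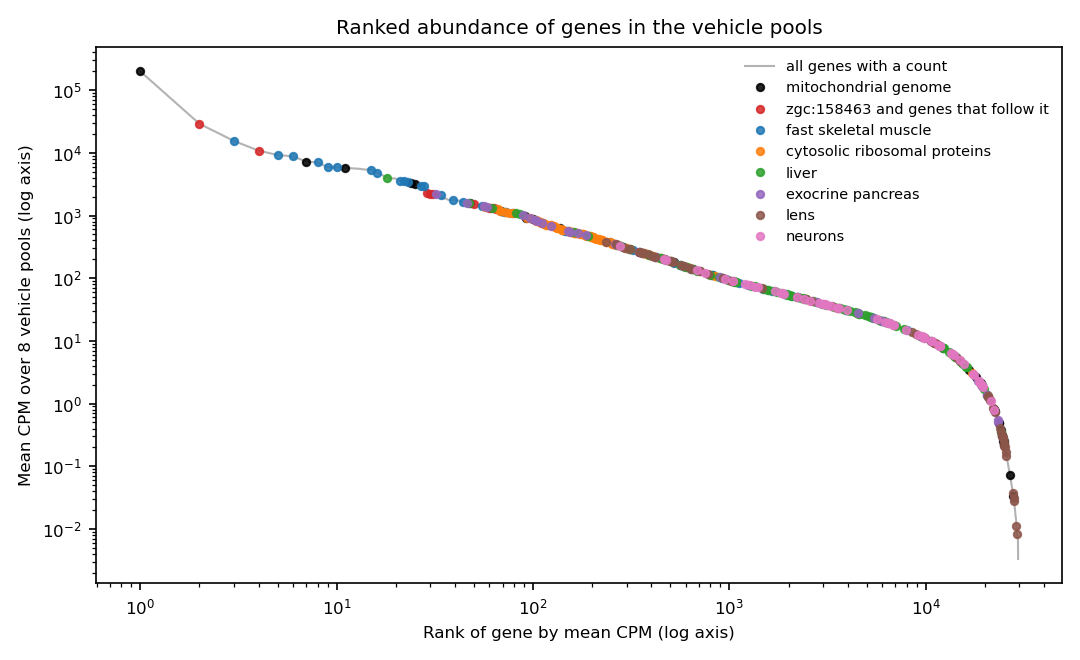
Mean CPM over the 8 vehicle pools (y, log axis) against the rank of each gene (x, log axis), with 1 point a gene for the mitochondrial genome, for zgc:158463 and the genes that follow it, and for 6 gene lists. Fast skeletal muscle and mitochondrial genes fill most of the top 30 ranks, most ribosomal protein genes lie between ranks 100 and 1000, and the neuronal genes spread mostly over the ranks below.

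Of the 100 genes highest in mean CPM, 10 were mitochondrial, 10 were small RNAs from the RFAM annotation, 10 were zgc:158463 and loci that follow it (described below), and 70 were other genes. Fast skeletal muscle gave 20 of these 70, the cytosolic ribosome 9, epidermis 6, exocrine pancreas 6, liver 5 and translation factors 4. A gene can stand in more than 1 list. Genes of no list included the giant sarcomere proteins ttna and ttnb, malat1 (a nuclear long noncoding RNA), actb2 (cytoplasmic actin) and ahnak.

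CPM favours long transcripts, so levels of different genes were compared as CPM per kilobase, each transcript's CPM divided by its length, over transcripts of 300 bases or more and without mitochondrial, small RNA and zgc:158463-like entries. On that scale parvalbumin, the calcium buffer of fast muscle, led with pvalb1 at 8342 ± 892 and pvalb2 at 8084 ± 964 CPM per kilobase. The thin-filament actin actc1b followed at 7211, then the myosin light chains mylpfa at 4230 and mylz3 at 3659, the elongation factor eef1a1l1 at 3213 and the tropomyosin tpma at 2597. The fast myosin heavy chain myhz1.1, first among nuclear mRNAs by CPM, was eighth at 2579 CPM per kilobase, and ttna, 14th by CPM, was 532nd at 89.4. Of the 100 genes highest by each scale, when the same entries are left out of both, 71 were shared. Ribosomal protein genes took 51 of the 100 highest per kilobase and fast muscle 17.

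Fast skeletal muscle was the largest tissue signal. All 50 genes of that list were at 1 CPM or more in every pool, 38 of them stood among the 1000 highest genes, and together they took 9.57% ± 0.48 of the counts. The myosin heavy chain myhz1.1 on chromosome 5 (31698473 to 31708976) was at 15487 ± 973 CPM, with pool 1 lowest (13663), a median of 15564 and pool 8 highest (16734). Its neighbours in the same cluster, myhz1.2, myhz2 and myhz1.3, were at 8780, 7046 and 4854 CPM. These paralogs are near-identical in coding sequence, so reads may have been split between them and the level of each is uncertain. actc1b was at 9259 ± 650 CPM. The calcium pump atp2a1, which refills the sarcoplasmic reticulum, was at 3509 ± 313, and the creatine kinases ckma and ckmb were at 2971 ± 192 and 2962 ± 198 CPM. Slow muscle was far smaller, 0.245% ± 0.014 of the counts over 13 genes, of which smyhc1, the slow myosin heavy chain, gave 1302 ± 78.0 CPM. Heart muscle came to 504 ± 23.8 CPM over 21 genes, led by the ventricular myosin vmhc at 134 ± 8.32 CPM, and 9 smooth muscle genes summed to 244 ± 25.9 CPM, led by acta2 at 95.5 ± 12.1.

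The translation machinery was the second large signal. The 86 cytosolic ribosomal protein genes took 4.69% ± 0.43 of the counts, all were at 1 CPM or more in every pool, and 83 stood among the 1000 highest genes. Their median member was at 502 CPM, and rpl3 was highest at 1378 ± 109 CPM. Per kilobase the order of both signals turned, with the ribosomal protein list at 15.9% ± 0.98 of the CPM per kilobase of all eligible genes and fast muscle at 13.4% ± 0.86. Translation factors took 1.70% ± 0.11 of the counts, and eef1a1l1, which brings aminoacyl-tRNA to the ribosome, gave 5577 ± 345 CPM of it. The 13 mitochondrial protein-coding genes summed to 20675 ± 2962 CPM, led by mt-co1, mt-co2 and mt-co3, the core subunits of cytochrome c oxidase, at 7259, 3270 and 3219 CPM. Glycolysis summed to 6911 ± 588 CPM, led by gapdh at 1676 ± 174. The heat shock list summed to 6554 ± 675 CPM, of which the constitutive chaperone hspa8 gave 59.9%.

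Skin was read out by keratins. Epidermal genes took 1.70% ± 0.11 of the counts, 48 of 49 were at 1 CPM or more in every pool, and krt4, a keratin of the outer layer, gave 5663 ± 513 CPM. The next keratins, cyt1, krt91 and cyt1l, were at 1468, 1440 and 1275 CPM. The ionocyte list, cells of the skin and gills that move salts, summed to 1323 ± 152 CPM, led by the sodium pump subunits atp1a1a.1 at 271 ± 52.6 and atp1a1a.4 at 249 ± 72.9. Connective tissue and fin fold genes summed to 6466 ± 617 CPM, with the type I collagens col1a1a at 1076 ± 86.8, col1a2 at 897 ± 135 and col1a1b at 633 ± 96.0. Cartilage and bone genes summed to 2355 ± 336 CPM, led by the cartilage collagen col2a1a at 582 ± 115, and 14 notochord genes summed to 347 ± 36.0 CPM. Pigment cell genes summed to 400.5 ± 39.5 CPM, led by gpnmb at 93.8 ± 9.91.

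Liver and exocrine pancreas stood close together by counts. The 94 liver genes took 1.58% ± 0.19 and the 34 exocrine pancreas genes 1.55% ± 0.16. In liver, apobb.1, the large structural protein of lipoprotein particles, gave 4033 ± 1122 CPM over a transcript of 11495 bases, 25.5% of the list. Of the shorter liver transcripts, apoa1b (a lipoprotein coat protein) was at 1585 ± 157 CPM and rbp4 (retinol transport) at 1087 ± 110. In pancreas the digestive proteases led, prss59.2 at 2224 ± 272, try at 1594 ± 194, ctrb1 at 1398 ± 131 and prss59.1 at 1344 ± 171 CPM. Per kilobase, 7 of the 100 highest genes were pancreatic and 4 hepatic. Intestinal genes summed to 4155 ± 821 CPM, led by apoa4b.1 at 482 ± 77.1, the chitinase chia.2 at 466 ± 238 and the fatty acid binding protein fabp2 at 396 ± 62.0 CPM.

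The lens and photoreceptor lists each summed higher than the neuronal and glial lists by counts. Lists hold chosen markers, so these sums do not measure how much RNA each tissue gave. Lens genes summed to 6080 ± 1164 CPM and photoreceptor genes to 5240 ± 640 CPM, against 2496 ± 687 CPM for 57 neuronal genes and 1067 ± 94.9 CPM for 23 genes of glia and myelin. The 41 gamma crystallins, the water-soluble proteins that fill lens fibres, summed to 4914 ± 895 CPM, the 14 beta crystallins to 1096 ± 276 and the 3 alpha crystallins to 15.25 ± 3.74. The gamma crystallin genes are a family of close copies, so the level of each is uncertain and the sum is the safer value. Among photoreceptor genes the ultraviolet cone opsin opn1sw1 was highest at 1166 ± 152 CPM (656 CPM per kilobase), above the red cone opsin opn1lw2 at 397 ± 72.8 CPM (337 CPM per kilobase) and the rod opsin rho at 182 ± 95.4 CPM. Among neuronal genes stmn1b, a tubulin-binding protein of young neurons, led at 328 ± 37.0 CPM, followed by rtn1a at 202 ± 26.9, the synaptic vesicle fusion protein snap25a at 195 ± 22.9 and gad1b, which makes the transmitter GABA, at 133 ± 13.0.

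**Figure D2:**
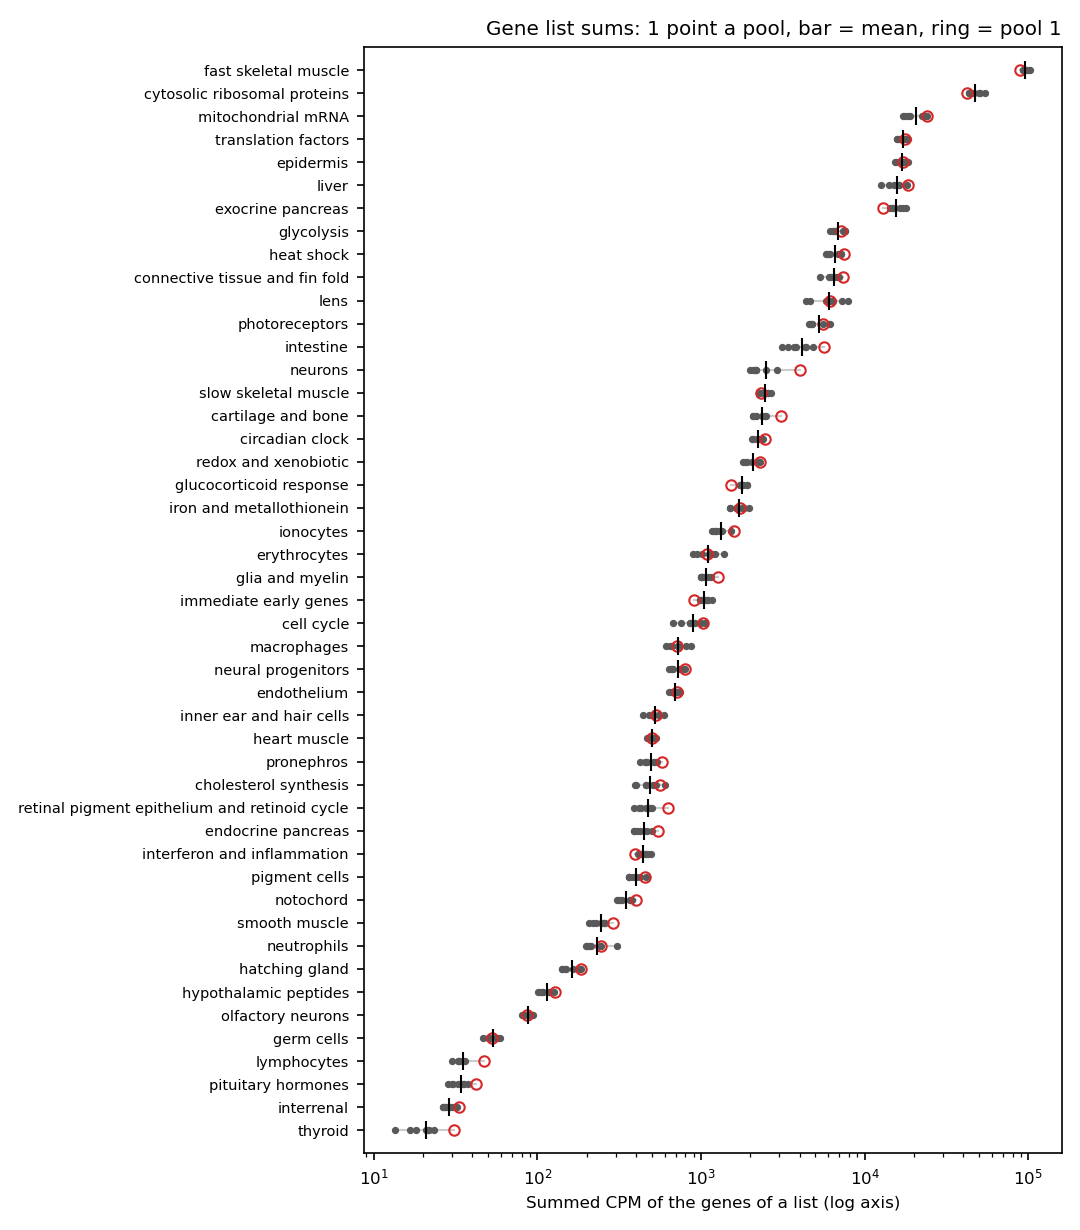
Summed CPM (x, log axis) of each of 47 gene lists, with 1 point for each of the 8 vehicle pools, a vertical bar at their mean and an open ring for pool 1. Lists run from fast skeletal muscle (95749 CPM) to thyroid (20.8 CPM), and the neurons ring stands to the right of the other 7 pools.

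Markers of small organs and rare cells were still counted. The pronephros list summed to 493 ± 50.7 CPM, led by the water channel aqp3a, and endothelium to 693 ± 31.4 CPM. Erythrocyte genes summed to 1105 ± 157 CPM, and the 7 globin genes whose symbol starts with hba or hbb gave 303 ± 70.0 CPM of it. The list was led by rhag, an ammonia channel of the red cell membrane, at 274 ± 32.1 CPM and the peroxidase prdx2 at 203 ± 26.2. Of the 41 symbols in this list 6 matched no gene, so the globin sum and this order cover matched genes only. The macrophage list summed to 720 ± 85.3 CPM, but apoeb, which other cells also express, was 78.4% of it. In the same list csf1ra, the receptor for the macrophage growth factor, was at 26.1 ± 1.66 CPM, and the median gene was at 3.96 CPM. The neutrophil list summed to 231 ± 35.8 CPM, with lyz (lysozyme) at 15.6 ± 2.44. The hormone glands were near the lower end. Growth hormone gh1 was at 12.3 ± 2.05 CPM, thyroglobulin tg at 11.6 ± 4.35, and the steroid synthesis genes cyp17a1 and star at 6.13 ± 1.08 and 6.07 ± 0.694. Lymphocyte genes summed to 35.2 ± 5.09 CPM, of which tox gave 40.1% and rag1, a recombinase of antigen receptor genes, 7.92 ± 1.14 CPM. The germ cell list summed to 53.5 ± 4.23 CPM, of which nanos1 alone gave 42.5%, and its median gene was at 0.496 CPM. Only 8 of 16 lymphocyte genes and 8 of 26 germ cell genes had a mean of 1 CPM or more, so both sums rest on few genes. In the hatching gland list the proteases that digest the egg shell were low, he1a at 3.49 ± 2.32 and he1b at 1.76 ± 0.899 CPM, while xbp1 and cd63, which many secretory cells express, made up most of its sum. Of all list genes, 3 had no count in any pool: si:ch211-5k11.6, a globin-locus gene in the erythrocyte list, zp3a.1, an egg coat gene, and igic1s1, an immunoglobulin gene. At 3 read pairs over all pools, a count of 0 allows a level of up to 0.0213 CPM. This limit covers counting error only.

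Responsive pathways were present at baseline. The immediate early list summed to 1037 ± 78.0 CPM, with dusp6 at 128 ± 9.88 and dusp1 at 74.5 ± 11.4. In the circadian list the repressor cry1ba led at 410 ± 28.2 CPM and nr1d2b was at 152.6 ± 16.1. The interferon and inflammation list summed to 444 ± 32.3 CPM, and stat1a, a transcription factor of interferon signalling, gave 125 ± 7.69 of it, while il1b, tnfa and il6 were each under 0.5 CPM (0.484, 0.0520 and 0.0495). The cell cycle list summed to 893 ± 134 CPM, with ccnd1, mki67 and pcna at 112, 97.7 and 75.7 CPM. Cholesterol synthesis summed to 489 ± 73.7 CPM, with the sterol uptake receptor ldlra at 84.9 ± 7.05.

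Genes were not spread evenly over the chromosomes by detection. On the numbered chromosomes other than 4, between 58.6% (chromosome 22) and 72.6% (chromosome 12) of the genes were at 1 CPM or more in every pool, against 38.9% of 3103 genes on chromosome 4. Chromosome 5, home of the fast myosin cluster and of zgc:158463, took 8.17% ± 0.80 of the counts. Of 10620 genes at 10 CPM or more, 6767 had more than 1 transcript in the table, and the most abundant held 60.2% of a gene's counts in the median of these.

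For most genes the spread between pools was moderate, but by CPM many list sums split pools 1 to 4 from pools 5 to 8. By CPM, photoreceptors were at 5534 to 6104 in pools 1 to 4 and at 4538 to 4794 in pools 5 to 8. Mitochondrial mRNA (22272 to 24075 against 17062 to 18836) and heat shock (6856 to 7431 against 5769 to 6166) also had no overlap. These are examples, and other lists such as liver and intestine split in the same way. Most genes leaned in this direction by CPM. Of 21633 genes with a mean of 1 CPM or more, 9289, 3354, 2105 and 3728 were highest in pools 1 to 4, in that order. Only 736, 837, 866 and 718 were highest in pools 5 to 8. By CPM, higher levels in pools 1 to 4 were therefore not particular to the named lists. The split depends on the scaling. TMM factors, which centre most genes, were 1.01 to 1.14 in pools 1 to 4 and 0.899 to 0.955 in pools 5 to 8. With them photoreceptors and heat shock overlapped between these sets of pools, and mitochondrial mRNA did not. By CPM, fast muscle did overlap (88642 to 101616 against 92578 to 102699). The spread was measured as the coefficient of variation (CV), the SD over the 8 pools divided by the mean. Over the 21633 genes with a mean of 1 CPM or more the median CV was 0.169, where counting of read pairs alone would give 0.0818. It fell with the level, from 0.206 at 1 to 10 CPM to 0.138 at 10 to 100, 0.115 at 100 to 1000 and 0.101 for the 91 genes at 1000 CPM or more. Of the 21633, 2682 (12.4%) had a CV under 0.1 and 830 (3.84%) a CV over 0.5. Without pool 1 the second count was 381, and pool 1 was the highest pool for 447 of the 830 and pool 5 for 336. Of all 21633 genes, pool 1 was highest for 9289 (42.9%) and pool 5 for 736 (3.40%), so pool 5 stood out more against that background. Pearson correlations of log2(CPM + 1) between pools, across genes that are not independent replicates, lay between 0.980 and 0.996, and the lowest without pool 1 was 0.989.

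**Figure D3:**
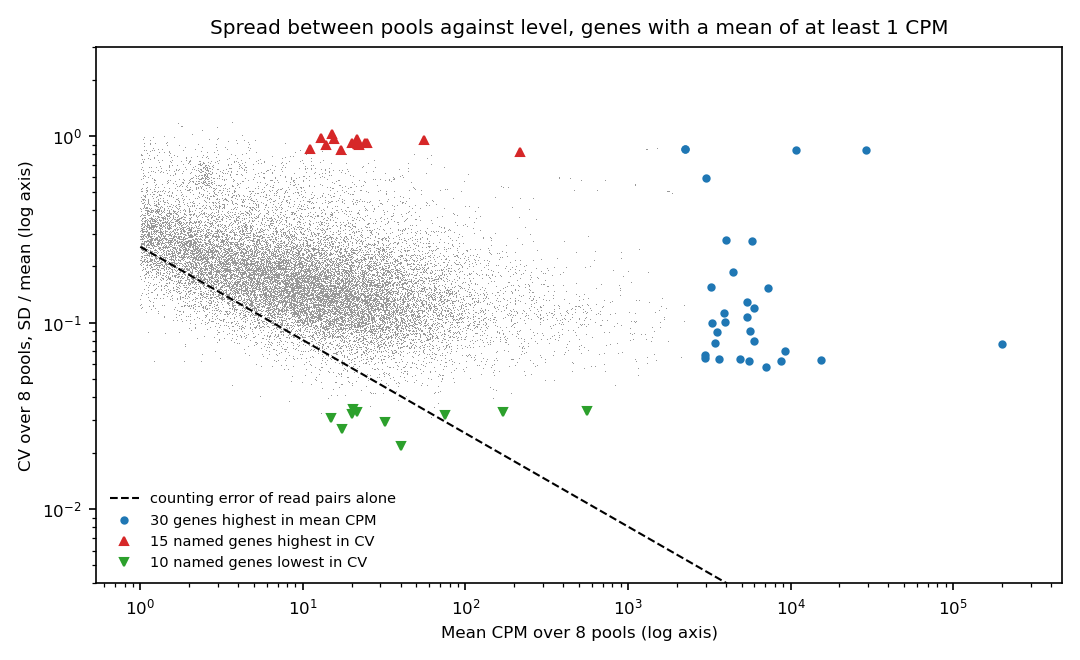
CV over the 8 vehicle pools (y, log axis) against mean CPM (x, log axis), 1 small point a gene for 21633 genes, with the named groups marked and a dashed line for counting error of read pairs alone. Most of the 30 genes highest in mean CPM lie between 0.05 and 0.3, and the 15 named genes highest in CV lie between 0.821 and 1.03.

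The steadiest genes by CPM came from several functions. Among named genes of 10 CPM or more, tfeb had the lowest CV, 0.0218. It encodes a transcription factor of lysosome genes on chromosome 11 (22127519 to 22200738), and its level was between 39.4 and 41.8 CPM in all 8 pools, with a median of 40.5. After it came znf1134, mtus1b, isy1 (a splicing factor), rorca (a nuclear receptor, 71.7 to 78.0 CPM), col4a3bpa, tmub2, nrap (a myofibril assembly protein, 162 to 180 CPM), actn3b (the fast-fibre alpha-actinin, 533 to 586 CPM) and map3k3, all with a CV of 0.035 or less. This order depends on the scaling. With TMM factors, which centre most genes and ran from 0.899 in pool 5 to 1.14 in pool 1, shifting log2 values by -0.19 in pool 1 and 0.15 in pool 5, the CV of tfeb was 0.079 and those of the other 9 lay between 0.063 and 0.082. Among the lists, cytosolic ribosomal proteins and fast muscle had few members above the median CV of all genes, 0 of 86 and 1 of 50. In lens (41 of 49), neurons (47 of 56) and pronephros (21 of 25) most members were above it. These counts are by CPM, and the spread of the lists depends on the scaling. With TMM factors the CV of the summed list went from 0.050 to 0.111 in fast muscle and from 0.092 to 0.108 in ribosomal proteins. It went from 0.191 to 0.146 in lens, from 0.275 to 0.188 in neurons and from 0.103 to 0.029 in pronephros. The counts also depend on the level. The median member was at 502 CPM in ribosomal proteins and 414 in fast muscle, against 34.7 in lens, 22.2 in neurons and 4.84 in pronephros. The median CV was 0.105 and 0.0856 in the first 2 lists, beside 0.115 for all genes at 100 to 1000 CPM. It was 0.215 in lens and 0.343 in neurons, beside 0.138 at 10 to 100 CPM, and 0.236 in pronephros, beside 0.206 at 1 to 10 CPM.

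The 15 named genes highest in CV fell into 2 profiles. In the first, 8 genes were highest in pool 1 and lowest in pool 4. slc12a5a, the neuronal chloride exporter on chromosome 6 (55437979 to 55574102), was at 53.4 CPM in pool 1, 15.3 in pool 2, 10.4 in pool 3, 5.75 in pool 4 and 9.34, 9.76, 9.96 and 7.76 in pools 5 to 8. Pool 1 did not overlap the rest, and the CV went from 1.03 to 0.301 without it. The calcium release channel gene RYR2 (43.3 CPM in pool 1, 5.42 to 13.3 in the others), bsnb, a scaffold of the presynaptic active zone (52.1 against 5.42 to 14.4), slc1a2b, a glutamate transporter that clears synapses (183 against 21.0 to 57.9), and sez6l2 (64.7 against 9.54 to 20.6) had the same profile. So did ank1b, a cytoskeletal adaptor, camta1a, a transcription factor of brain, and SI, sucrase-isomaltase of the intestinal brush border, with 43.8, 33.9 and 51.5 CPM in pool 1. Their CVs without pool 1 lay between 0.253 and 0.352.

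In the second profile, pools 5 to 8 were high and pools 1 to 4 low, for copies of otud4 and for unnamed loci among the most abundant of all. si:dkey-153m14.1 on chromosome 20 (55338636 to 55339525), second by mean CPM, was at 8660, 7165, 5484 and 9225 CPM in pools 1 to 4 and at 64221, 54927, 49436 and 33780 in pools 5 to 8. zgc:158463 on chromosome 5 (825789 to 827000), which RefSeq (assembly GRCz12tu, matched by symbol) lists as ribosomal RNA, was at 3152, 3005, 2215 and 3719 and then 24223, 21611, 16791 and 12155 CPM. There was no overlap in either. With 9 further genes chosen because their CPM follows it over the pools (r of 0.95 or more), these took 1.04% of the counts in pool 3 and 12.1% in pool 5. The positions of these loci interleave. The 168-base otud4 copies at 822115 to 822282 and 833762 to 833929 of chromosome 5 lie on either side of zgc:158463. On chromosome 4 the copy at 53869048 to 53869215 lies inside si:dkeyp-3b12.9 (53868920 to 53869370) and that at 53897180 to 53897347 inside si:dkeyp-3b12.10 (53897052 to 53897500). Overlapping or repeated loci compete for the same reads, so only their joint level is firm.

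**Figure D4:**
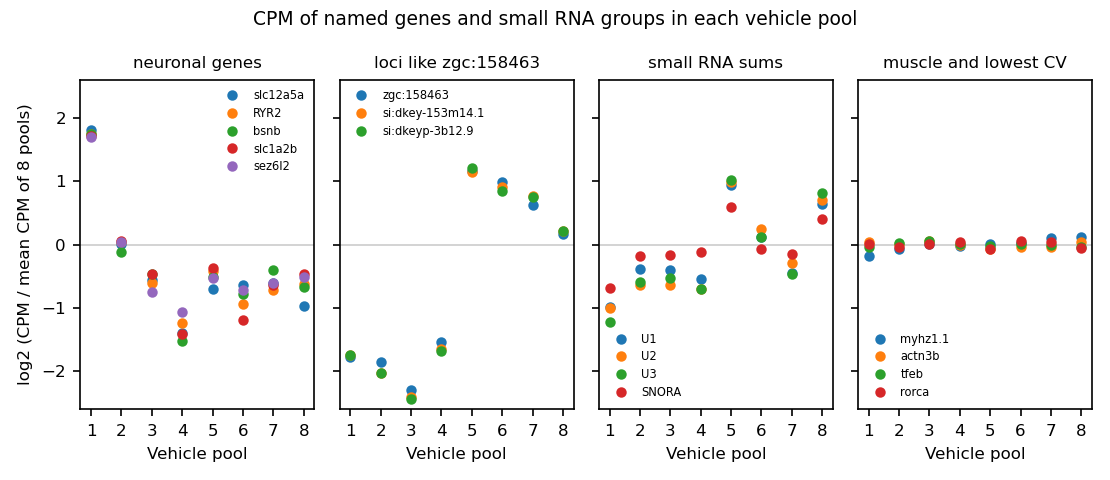
log2 of CPM over the mean CPM of the 8 vehicle pools (y) in each pool (x), 1 point a gene or group, in 4 panels. The genes highest in pool 1 stand apart there, zgc:158463 and its like are low in pools 1 to 4 and high in pools 5 to 8, small RNA sums are highest in pools 5 and 8, and myhz1.1, actn3b, tfeb and rorca stay near 0.

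Small RNAs were also highest in pools 5 and 8, but their order within pools 5 to 8 differed from that of zgc:158463. The 2374 RFAM entries took 1.57% of the counts in pool 1, 5.103% in pool 5 and 4.23% in pool 8, with a median of 2.24%. U1, a spliceosomal RNA with 382 entries in the table, summed to 5857 CPM in pool 1, 22391 in pool 5 and 18049 in pool 8. Its sum in pool 7 (8517 CPM) lay within the range of pools 1 to 4 (5857 to 8884). U2 was at 1782 to 2293 CPM in pools 1 to 4 and at 2924 to 7089 in pools 5 to 8. U3, a nucleolar RNA that helps to process ribosomal RNA precursors, was at 1383 to 2229 and at 2349 to 6566. Neither U2 nor U3 overlapped between these sets of pools, and both had pool 1 lowest and pool 5 highest. These entries are short and occur in many near-identical copies, so their sums are given and no single copy is compared.

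The neuronal list as a whole was highest in pool 1. It summed to 4021 CPM there and to 1978 to 2930 CPM in the other 7 pools, with a median of 2165 over all 8. Of its 56 genes with a mean of 1 CPM or more, 50 (89.3%) were highest in pool 1, against 42.9% of all 21633 genes. The member genes did not move alike. stxbp1a, needed for vesicle release, was at 174 CPM in pool 1 against 28.7 to 80.5 in the others, and the glutamate vesicle transporter slc17a6a at 24.0 against 4.25 to 9.22. snap25a, in contrast, was at 234 against 168 to 217 CPM, and stmn1b, highest in pool 4, was at 300 CPM in pool 1 within a range of 293 to 386. With TMM factors 47 of the 56 were highest in pool 1, against 26.7% of all genes, and the ratio of pool 1 to the mean of the others went from 1.76 to 1.53.

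Other tissues held genes with the same profile beside genes without it. In the intestine, NPC1L1, the cholesterol uptake transporter, was at 32.0 CPM in pool 1 against 6.30 to 11.0, the amino acid transporter slc6a19a.2 at 61.1 against 12.2 to 27.7 and chia.2 at 1005 against 306 to 615 CPM, while fabp2 and apoa4b.1 were highest in pool 4. In the retina rho was at 406 CPM in pool 1 against 110 to 204, and rpe65a, the isomerase of the visual cycle, at 55.6 against 13.6 to 27.3. In cartilage col11a2 was at 173 against 76.7 to 94.7 CPM and col2a1a at 853 against 503 to 595. In liver cyp3a65, a drug-metabolizing enzyme, was at 308 against 92.8 to 196 CPM. The summed liver list was highest in pool 1 by CPM (18390 against 12636 to 18124) and in pool 8 with TMM factors. Of the liver genes, 20 of 92 (21.7%) were highest in pool 1 by CPM, against 42.9% of all genes. The same share was 55.1% in intestine, 54.8% in cartilage and bone, 33.3% in photoreceptors and 58.8% in the retinal pigment epithelium list. Some lists went the other way, with pool 1 lowest for the summed CPM of exocrine pancreas (13016 against 14222 to 17819), ribosomal proteins (41990 against 43406 to 54438) and fast muscle (88642 against 92578 to 102699). These 3 directions, and that of the neurons, were the same with TMM factors and with both reduced totals. Pool 1 was the lowest pool for 6 of the 47 lists by CPM and for 19 with TMM factors. On the second scale a low pool 1 was therefore not particular to these 3 lists.

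Transcript length moved with the deviation of pool 1. For genes of at least 1 CPM, the median log2 ratio of pool 1 to the mean of the other 7 was 0.02 for transcripts of 300 to 1000 bases, 0.12 at 1000 to 2000, 0.26 at 2000 to 4000, 0.40 at 4000 to 8000 and 0.57 in 383 genes above that. Pool 4 ran the other way, from 0.17 to -0.28, and pool 2 was nearly level, from 0.17 to 0.11. Neuronal genes stood above all genes of their length in pool 1, at 0.85 (21 genes), 1.01 (26 genes) and 1.54 (7 genes) in the 3 classes from 1000 to 8000 bases. Intestinal genes were at 0.08 (16 genes) from 1000 to 2000 bases and 0.73 (20 genes) from 2000 to 4000. Fast muscle genes were between -0.22 and 0.03 in their 4 classes. Pool 1 also had the lowest share of small RNA, and its mitochondrial ribosomal RNA share, 19.2%, was within the range of the others (18.6% to 22.5%). The part of length or of library composition in these differences was not tested.

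**Figure D5:**
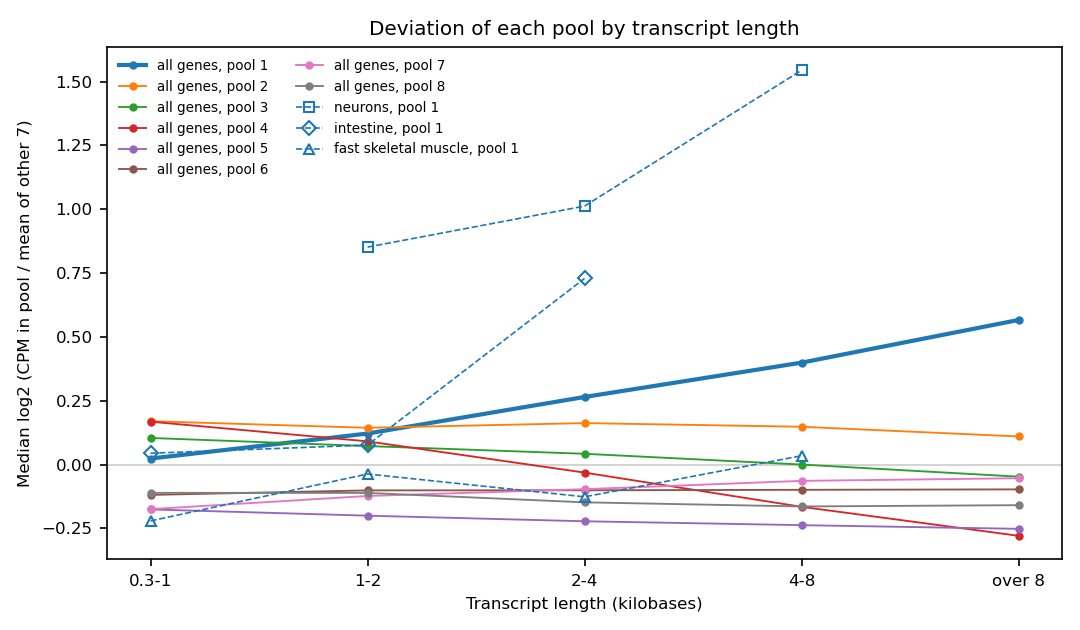
Median log2 ratio of a pool's CPM to the mean of the other 7 pools (y) in 5 classes of transcript length (x, kilobases), with 1 solid line a pool for all genes and dashed lines with open marks for 3 lists in pool 1. The line of pool 1 goes from 0.02 to 0.57 and that of pool 4 from 0.17 to -0.28, and the neurons of pool 1 stand above both at 0.85 to 1.54.

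Further genes varied in ways that pool 1 alone did not set. klf2a, a flow-responsive transcription factor of endothelium, was at 43.6, 40.2, 56.6, 97.5, 87.0, 120, 127 and 176 CPM in pools 1 to 8. fkbp5, a glucocorticoid-induced chaperone partner, was at 33.4 CPM in pool 1 and 110 in pool 8, with a median of 49.8, and its CV was 0.44 (0.40 without pool 1). serpinh1b, the collagen chaperone, was between 59.0 and 71.0 CPM in pools 1 to 4 and between 23.7 and 41.9 in pools 5 to 8. In the lens, the beta crystallins crybb1l1 and crybb1 were highest in pool 3 (174 and 74.9 CPM), with CVs of 0.42 and 0.37. mmp9, a matrix protease of inflammation, was at 27.18 CPM in pool 2 against 7.11 to 10.1 in the other 7, and timp2b, a protease inhibitor, was at 26.2 in pool 2 and 20.7 in pool 1 against 5.28 to 9.60.

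List sums were also set against 2 library measures, the total count and the mitochondrial ribosomal RNA share, in 94 relations over the 8 pools. By 2-sided exact permutation tests of Pearson's r, 11 had an unadjusted p under 0.05 and 0 had a Benjamini-Hochberg adjusted p under 0.05, the lowest being 0.252, and by Spearman's rho 0 also passed. The largest r was that of neutrophils against the library total, 0.89 (exact permutation p = 0.0117) and rho = 0.55 (exact permutation p = 0.171), and r was 0.58 without the 2 pools farthest from the median total. Slow muscle against the mitochondrial ribosomal RNA share had r = 0.87 (exact permutation p = 0.00618) and rho = 0.93 (exact permutation p = 0.00223), with r = 0.75 without 2 pools. The library total is the denominator of the list sums and of the mitochondrial ribosomal RNA share, so neither measure is independent of the list sums.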

How the data were processed

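The study pooled 30 larvae per library, made stranded total RNA libraries and aligned paired reads with Bowtie2 to Ensembl transcripts. The submitters' processing notes also name FastQC, SAMtools, limma and GRCz10, whose versions the sources used here do not give. The authors deposited raw counts per transcript, not normalized, with transcript lengths. No vehicle count was odd, which fits counting of the 2 mates of each pair, so counting error was taken from halved counts. The placement of reads with several matches is not stated in those sources. The 8 triptolide libraries were not analysed here.

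Counts were summed per gene ID. The 209 transcripts without one, which made up 0.220% to 0.282% of each library, entered the totals only. CPM used library totals as the only scaling. Of 1605 entries in 47 gene lists, 1464 matched a deposited symbol and 68 more a current one. Lists, members and rules were chosen with earlier results of these data known. Named genes were the 30 highest in mean CPM, up to 4 highest and 2 most variable (5 CPM or more) per list, list genes at 0, the 15 highest and 10 lowest CVs at 10 CPM or more without clone names, and the 10 highest per kilobase. A few others (globins, crystallins, small RNA groups, il1b, tnfa, il6, loci like zgc:158463, genes of no list) were named after their values were seen. One gene that the rule names is not reported here. No pair of pools matched within sampling noise (chi-square per degree of freedom 3.85 or more). Alternatives were TMM factors (edgeR 4.0.16, R 4.3.3), totals without mitochondrial and ribosomal RNA, other thresholds, the most abundant transcript of a gene, and leaving out each pool. The CV code was tested on simulated counts.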

Additional observations from a re-analysis of the deposited data

Results flagged for a closer look

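Of 109 results examined (47 list sums, 55 genes and 7 library measures), 19 had 1 pool set apart from the other 7 by a gap above Dixon's 95% critical value. Over all 10620 genes at 10 CPM or more, 1488 (14.0%) had a pool set apart in the same way, 1326 of them pool 1. Among the results examined, 14 of 55 genes and 4 of 47 lists were flagged. The count of 19 mixes genes, lists and library measures, so it cannot be set against the share over all genes. Chance flags about 1 in 20 groups, but that rate does not apply to the 14 genes among the 19, all of which were named for a high CV. Results that share reads or pools are also not independent. Pool 2 had the largest total, 75490916 counts. Pool 1 stood apart for 3 lists, with summed levels of 4021 CPM for neurons, 3090 CPM for cartilage and bone and 47.0 CPM for lymphocytes, the last mostly tox (26.3 CPM). Only 1 of the 8 lymphocyte genes with a mean of 1 CPM or more (12.5%) was highest in pool 1, against 42.9% of all genes. Pool 2 stood apart for neutrophils at 305 CPM, a list that holds mmp9 and timp2b. The gap over the range of the neurons stayed above the critical value with TMM factors (0.62), with totals without mitochondrial and ribosomal RNA (0.53) and with totals that also left out the zgc:158463-like genes (0.57). That of the other 3 lists fell below it under some of these scalings, which were for neutrophils the second (0.55, 0.50 and 0.65, in the same order), for cartilage and bone the first and the second (0.42, 0.51 and 0.65) and for lymphocytes the first and the third (0.21, 0.60 and 0.50). Pool 1 stood apart for slc12a5a (53.4 CPM), RYR2 (43.3 CPM), bsnb (52.1 CPM), slc1a2b (183 CPM), sez6l2 (64.7 CPM), ank1b (43.8 CPM), camta1a (33.9 CPM) and SI (51.5 CPM). Pool 5 stood apart for 6 of the 168-base otud4 copies, at 65.8, 69.6, 73.4, 63.2, 63.1 and 63.0 CPM. Several of them lie in or beside loci like zgc:158463 and compete for the same reads, so they are not independent of each other.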

How the results depend on the processing

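The count of genes at 1 CPM or more in every pool was within 1.5 times of 20020 under the other scalings, at 0.1 CPM (24458) and in at least 1 pool (23010), and was 9034 at 10 CPM. The share of the 100 highest genes was 32.2% without mitochondrial and ribosomal RNA in ranks and totals, 29.2% when zgc:158463-like genes were also left out (a choice made after seeing the data), and 17.0% for the 100 highest per kilobase. All listed genes together took 28.8% of the counts, 37.8% and 40.0% of those reduced totals, and 21.7% when only the top transcript of a gene was counted. These shares move by construction, since the denominator or the genes change. The median CV lay between 0.136 and 0.213 over the other settings and between 0.147 and 0.175 without each pool in turn. The lowest correlation between pools was 0.958 when genes under 1 CPM were left out. No relation of list sums passed by Pearson's r after reducing the totals (0 of 94, 14 at an unadjusted p under 0.05), and 1 passed by Spearman's rho, slow muscle against the mitochondrial ribosomal RNA share (rho = 0.98, exact permutation p = 3.97e-04, adjusted p = 0.0373 over 94). Taking mitochondrial RNA out of the totals raises every list sum most in pools where that share is large. Relations to the share are therefore partly built in on this scale, and no conclusion is drawn from the 1 that passed. Of 55 named genes, 20 had a CV more than 1.5 times higher or lower with TMM factors, all 10 of the steadiest among them. No paired analysis was possible because the results come from no test between groups. With no second group and totals of 19679120 counts or more, levels under about 1 CPM are limited by counting.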
